A study of Mus musculus with 6 samples.

Results

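The small intestine is rich in the mature miRNAs of the miR-192, miR-194, and miR-215 genes, whose levels were compared here between Cdr1as-/- mice and their littermates. All 7 mature forms that the array names for these genes were taken by name, whatever their values, out of 1831 miRNAs in the table. They comprise 3 guide strands, miR-192-5p, miR-194-5p, and miR-215-5p, and 4 passenger strands, miR-192-3p, miR-194-1-3p, miR-194-2-3p, and miR-215-3p. The guide is the arm of a miRNA hairpin that is usually loaded into Argonaute, while the passenger arm is mostly degraded.

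Each group held 3 mice, with 1 one-colour array per mouse. The Cdr1as-/- mice carry a CRISPR/Cas9 deletion of the Cdr1as locus, which encodes a circular RNA, in every cell of the body. They are called knockouts below and are numbered, as the littermates are, from 1 to 3, which is the order of the values given for each group. They are on the C57BL/6J background, and the controls are their littermates, labelled wildtype. Neither the array labels nor the methods for these arrays give an age or sex. The methods state that food was withheld before experiments, without naming the array mice. The labels give the tissue as small intestine, the study as its mucosa, so the RNA came from a mixture of cells. In such bulk samples, fewer cells of a type and less RNA per cell cannot be told apart. Cdr1as itself was not measured here, so the genotype could not be checked on these arrays.

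miR-192 and miR-194 are transcribed together, as are miR-215 and the other miR-194 copy. Hepatocyte nuclear factors promote their transcription in epithelia of the gut, liver, and kidney, and they are abundant in the differentiated intestinal epithelium. miR-192-5p and miR-215-5p share a seed, the short stretch that pairs with target mRNAs, and so share many targets, among them transcripts of the cell cycle. miR-192, miR-194, and miR-215 are also known as p53-induced miRNAs.

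The mature sequences show which of these miRNAs can share targets and which probes measure nearly the same RNA. They are given 5′ to 3′ from RefSeq, build GRCm38.p6, with the seed, bases 2 to 8, in capitals. The prefix mmu stands for mouse and is left out elsewhere except where a level is first given. All 7 were identical to the mature sequence listed in the deposited table.
mmu-miR-192-5p: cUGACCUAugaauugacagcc
mmu-miR-215-5p: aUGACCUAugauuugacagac
mmu-miR-194-5p: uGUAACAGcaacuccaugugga
mmu-miR-192-3p: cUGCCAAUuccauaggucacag
mmu-miR-215-3p: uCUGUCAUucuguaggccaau
mmu-miR-194-1-3p: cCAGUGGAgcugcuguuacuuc
mmu-miR-194-2-3p: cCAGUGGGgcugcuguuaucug

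The seed UGACCUA of miR-192-5p and miR-215-5p occurred in 2 miRNAs of the table, these 2 alone. Over their length of 21 bases, 18 were identical. The differences from miR-192-5p to miR-215-5p, counted from 1 at the 5′ end, were C1A, A12U, and C20A. With so few differences, binding of one miRNA to the probes of the other cannot be told apart in these values, and it was not tested. miR-194-1-3p and miR-194-2-3p were identical at 18 of 22 bases. Their differences, from miR-194-1-3p to miR-194-2-3p, were A8G, C19U, U20C, and C22G, of which the first lies in the seed. The seeds of miR-194-5p, miR-192-3p, miR-215-3p, and miR-194-1-3p were each found in 1 miRNA of the table, and that of miR-194-2-3p in 3.

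The hairpins lie in 2 clusters, all on the plus strand of GRCm38.p6. On chromosome 19, Mir194-2 spans chr19:6264643-6264728 and Mir192 spans chr19:6264844-6264932, with 115 bases between them and no overlapping gene in the annotation. On chromosome 1, Mir194-1 spans chr1:185313319-185313385 and Mir215 spans chr1:185313581-185313692, with 195 bases between them, within the span of Iars2, a tRNA synthetase gene. miR-194-5p is the same RNA from both clusters, so its level is their sum, whereas its passenger strand differs between the clusters and was measured separately.

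Littermate 3 stood apart from the other arrays before any comparison. Its median miRNA probe signal was 236, against 8.75 to 29.2 on the other 5 arrays, where knockout 1 had the highest. The quartiles of the deposited normalized values are alike on all 6 arrays. The comparisons of the 7 miRNAs and the medians of the marker lists are therefore given with and without littermate 3. Slide and genotype are partly confounded, since knockout 1 lay on the slide of the littermates and knockouts 2 and 3 lay on another.

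The 3 guide strands were among the highest values of the mucosal arrays in both genotypes. Their levels are the deposited normalized log2 values, which the authors made from up to 5 probes per miRNA. mmu-miR-194-5p was at 15.76, 15.71, and 15.18 in the littermates, against 15.74, 15.63, and 15.86 in the knockouts. mmu-miR-215-5p was at 15.48, 15.39, and 14.54 in the littermates, against 15.39, 15.29, and 15.38 in the knockouts. mmu-miR-192-5p was at 13.98, 14.08, and 11.64 in the littermates, against 13.86, 14.02, and 13.88 in the knockouts. For each guide strand the littermate 3 array was the lowest of the 6, and the other 5 lay close together, within 0.20 to 0.23 log2 units.

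The passenger strands were lower and varied more between arrays. mmu-miR-215-3p was at 11.13, 10.94, and 6.29 in the littermates, against 9.74, 10.71, and 10.63 in the knockouts. mmu-miR-192-3p was at 8.75, 8.73, and 6.09 in the littermates, against 6.86, 8.57, and 7.69 in the knockouts. Littermate 3 was again lowest of all arrays and knockout 1 next, and this order held for all 4 passenger strands. mmu-miR-194-1-3p, the passenger strand from the chromosome 1 cluster, was at 8.52, 8.36, and 4.57 in the littermates, against 6.61, 8.27, and 8.03 in the knockouts. mmu-miR-194-2-3p, from the chromosome 19 cluster, was at 7.02, 7.12, and 5.67 in the littermates, against 5.99, 7.17, and 6.60 in the knockouts. The groups overlapped for all 7 miRNAs over the 6 arrays.

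**Figure D1:**
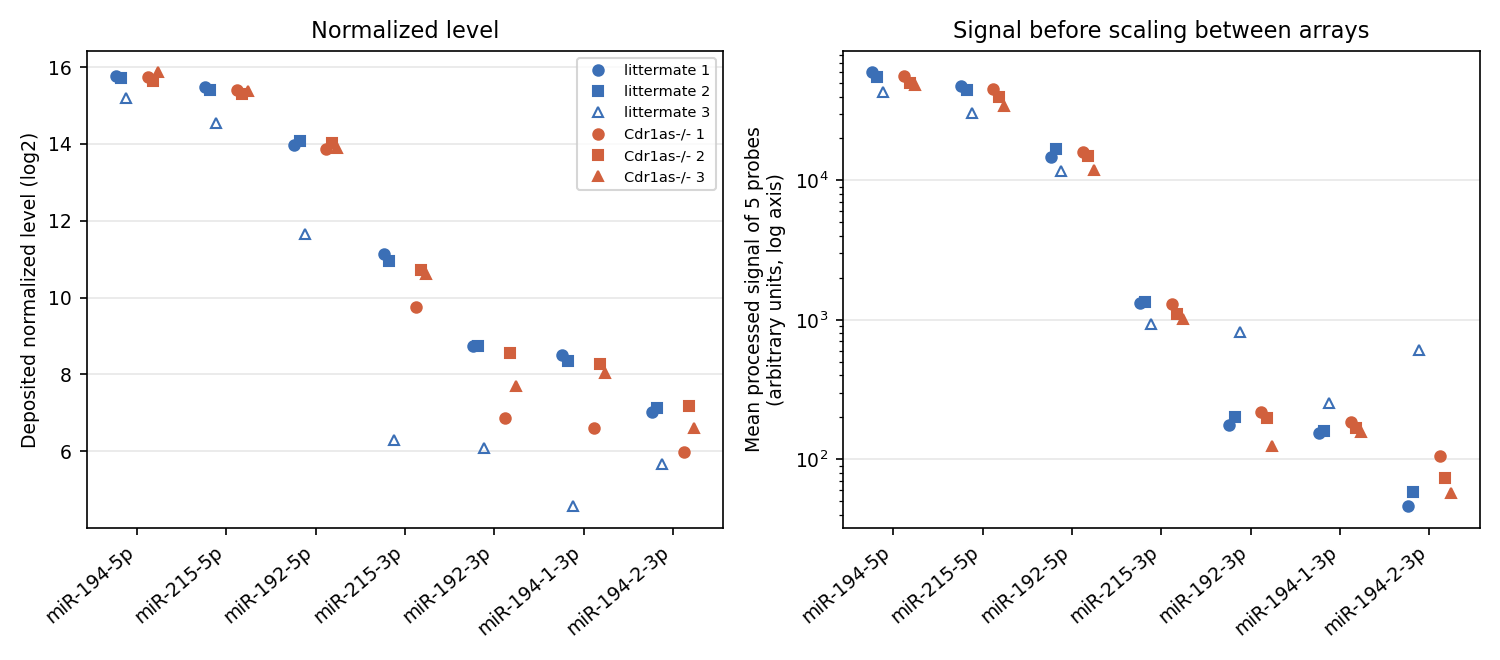
Level of each miRNA on each array, as the deposited normalized log2 value (left) and as the mean processed signal of its 5 probes in arbitrary units on a log axis (right). Each point is 1 mouse, blue for littermates and orange for Cdr1as-/- mice, and the open triangle is littermate 3. On the left littermate 3 is the lowest point for all 7 miRNAs, while on the right it is the highest for miR-192-3p, miR-194-1-3p, and miR-194-2-3p.

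A scaling factor for a whole array cannot change the ranks within it. Likeness of the ranks before and after scaling is therefore no test of the scaling. Ranks also reflect how well each probe binds and give no order of abundance between miRNAs. miR-194-5p ranked 1st and miR-215-5p 2nd of 1831 miRNAs on all 5 arrays other than littermate 3. miR-192-5p ranked between 4th and 7th on those arrays. On the littermate 3 array they ranked 4th, 13th, and 58th, and 4th, 13th, and 56th when the signal before scaling was ranked. miR-3960, miR-3473b, and miR-5126 held the first 3 places there, and none of these was among the first 3 on another array. Both genotypes therefore had the same 2 leading miRNAs, with littermate 3 as the exception.

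Among the passenger strands, miR-215-3p ranked highest, between 33rd and 75th without littermate 3 and 487th on that array. miR-192-3p ranked between 105th and 345th on the 5 arrays and 526th in littermate 3. miR-194-1-3p ranked between 121st and 385th, and 996th in littermate 3. miR-194-2-3p ranked between 273rd and 500th, and 629th in littermate 3. The largest rank number of the 5 arrays belonged to knockout 1 for every passenger strand.

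**Figure D2:**
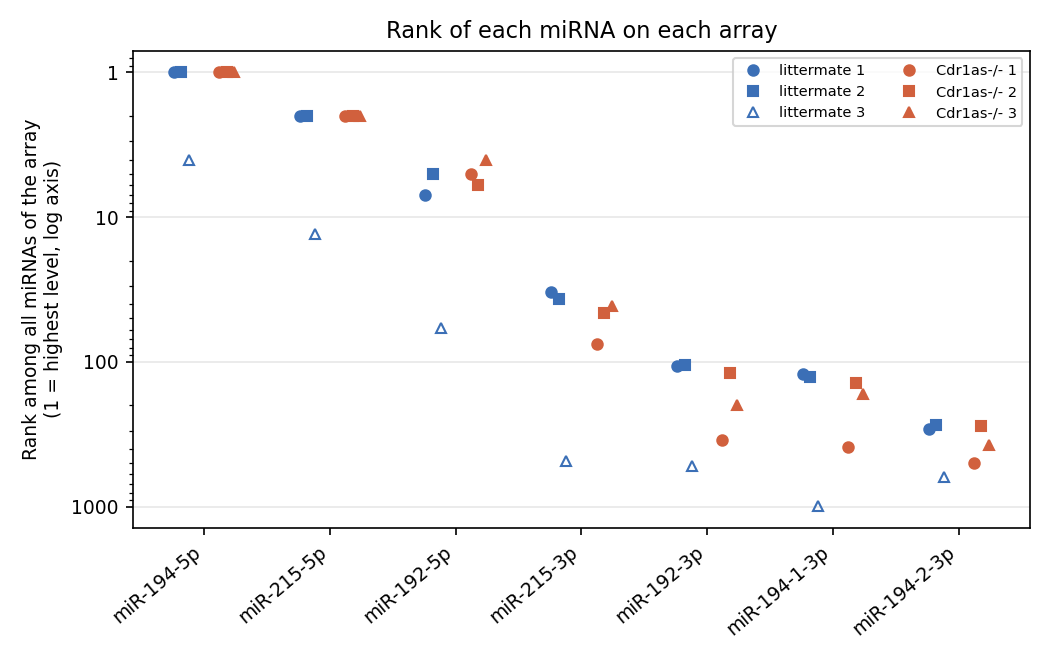
Rank of each miRNA among the 1831 of its array, with 1 as the highest level, on a log axis. Points are mice as in the plot of levels. miR-194-5p and miR-215-5p hold ranks 1 and 2 on 5 arrays, and littermate 3 (open triangle) has the largest rank number for all 7 miRNAs.

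The signal before any scaling gave a different picture of littermate 3. This is the background-subtracted processed signal of the scanner output, averaged over the 5 probes of each miRNA, in arbitrary units. For miR-194-5p it was 59540, 55680, and 42780 in the littermates, against 56540, 49740, and 48300 in the knockouts. For miR-215-5p it was 47340, 44200, and 30640 in the littermates, against 45280, 39580, and 34420 in the knockouts. For miR-192-5p it was 14772, 16888, and 11618 in the littermates, against 16068, 15050, and 11920 in the knockouts. The guide strands thus differed by at most 1.55-fold between any 2 arrays, with littermate 3 lowest for each and knockout 3 next.

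miR-215-3p behaved like the guide strands, with signals of 1314, 1339, and 931 in the littermates, against 1307, 1107, and 1019 in the knockouts. The other passenger strands were brighter in littermate 3 than on any other array. miR-192-3p had a signal of 175, 202, and 817 in the littermates, against 216, 198, and 125 in the knockouts. miR-194-1-3p had 155, 160, and 255 in the littermates, against 185, 167, and 158 in the knockouts. miR-194-2-3p had 45.8, 58.1, and 611 in the littermates, against 105, 72.7, and 56.7 in the knockouts. These 3 strands have the lowest signals of the 7, and all 3 were higher in littermate 3 before scaling but lower after it.

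Set against littermates 1 and 2, the signal of the median miRNA in littermate 3 was 27.8-fold higher. That of miR-194-5p was 1.35-fold lower, that of miR-192-5p 1.36-fold lower, that of miR-215-3p 1.42-fold lower, and that of miR-215-5p 1.49-fold lower. Few miRNAs varied as little before scaling. Ordered by the range of log2 signal over the 6 arrays, from the smallest of 1831, miR-194-5p was 4th, miR-215-3p 5th, miR-192-5p 7th, miR-215-5p 15th, and miR-194-1-3p 23rd. miR-192-3p was 182nd and miR-194-2-3p 373rd. The range of the median miRNA was 5.06 over the 6 arrays and 1.91 without littermate 3, so this order rests largely on that array. It is among all miRNAs, not among those of like brightness. A steady signal was not particular to these miRNAs. Of 9 other epithelial miRNAs, miR-200a-3p was the brightest before scaling. Its brightest probe had a log2 signal of 13.21, 13.69, and 13.07 in the littermates, against 13.45, 13.27, and 13.14 in the knockouts. The median of the 9 ran from 11.38 to 11.80 over the 6 arrays. The 7 miRNAs together made up 36.0%, 33.4%, and 2.93% of the summed miRNA signal in littermates 1 to 3, and 19.8%, 29.2%, and 32.2% in knockouts 1 to 3. The lower shares were those of the 2 arrays with the highest median signal.

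All 35 probes of these miRNAs, 5 each, could be read. Of the 210 probe values over the 6 arrays, 209 were well above background, 0 were saturated, and 0 carried an outlier flag. The exception was a miR-194-1-3p probe in knockout 2. Of all miRNA probes, 66.8%, 84.7%, and 100% were well above background in littermates 1 to 3. In knockouts 1 to 3 the shares were 96.8%, 41.5%, and 79.3%. Probe signals ran from 32400 to 71300 for miR-194-5p, from 23100 to 55500 for miR-215-5p, and from 2290 to 25400 for miR-192-5p. The weakest probes belonged to miR-194-1-3p and miR-194-2-3p, whose lowest signals were 12.4 and 12.7. Both of these values still counted as well above background, so the call says little about weak probes.

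None of the 7 miRNAs passed the test between knockouts and littermates on the 6 arrays. limma, a linear model with variances shared across miRNAs, called 0 of the 7 after Benjamini-Hochberg adjustment over 1831 miRNAs at 0.05. It called 0% of all miRNAs lower and 0% higher. Before adjustment it counted 0 of the 7 at p below 0.05, with 0.218% of all miRNAs lower and 0.109% higher in the knockouts. The methods' t-test counted 21 of the 1831 miRNAs at the same threshold before adjustment and 0 after it. The knockouts overlapped the littermates for each of the 7, while 2.73% of all miRNAs were lower and 0.437% higher without overlap. The difference was above 0 for 5 of the 7 and below 0 for 2, as it was for 39.1% and 60.9% of all miRNAs.

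Among the guide strands, miR-192-5p had a mean of 13.23 ± 1.38 (SD, n = 3) in littermates, against 13.92 ± 0.08 (SD, n = 3) in knockouts. The log2 difference, knockouts minus littermates throughout, was 0.69, with a 95% interval from -0.94 to 2.32. For miR-194-5p the means were 15.55 ± 0.32 and 15.74 ± 0.11, with a difference of 0.19 and an interval from -0.42 to 0.81. For miR-215-5p they were 15.14 ± 0.52 and 15.35 ± 0.06, with a difference of 0.22 and an interval from -0.55 to 0.98. The littermate SD was the larger in each case and came from littermate 3. limma's adjusted p was 1.0 for all 7 miRNAs. The exact two-sided permutation p was 0.9 for miR-192-5p, 0.5 for miR-194-5p, and 0.9 for miR-215-5p, where 3 against 3 mice cannot give less than 0.1.

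The passenger strands had wider intervals. The log2 difference was 0.90 for miR-215-3p, with an interval from -2.29 to 4.09, and -0.15 for miR-192-3p, from -2.18 to 1.88. It was 0.49 for miR-194-1-3p, from -2.27 to 3.25, and -0.01 for miR-194-2-3p, from -1.24 to 1.21. Their exact permutation p-values lay between 0.8 and 1. Intervals this wide do not show that the levels were alike. With the slide as a block, which sets knockout 1 alone against the littermates of its slide, the differences were 0.63 for miR-192-5p, 0.19 for miR-194-5p, 0.26 for miR-215-5p, and 0.29 for miR-215-3p. They were then -0.999 for miR-192-3p, -0.54 for miR-194-1-3p, and -0.61 for miR-194-2-3p, and limma's adjusted p was 1.0 for each.

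Leaving out littermate 3 turned or moved most of these differences. On the 5 arrays, miR-194-5p differed by 0.01, with a 95% interval from -0.51 to 0.53. miR-215-5p differed by -0.08, from -0.60 to 0.43, and miR-192-5p by -0.11, from -0.62 to 0.41. These guide strands had a mean of 15.73 ± 0.03, 15.44 ± 0.07, and 14.03 ± 0.07 (SD, n = 2) in the other littermates, in the order just given, against 15.74 ± 0.11, 15.35 ± 0.06, and 13.92 ± 0.08 (SD, n = 3) in the knockouts. The difference was smaller than either SD for miR-194-5p. For miR-215-5p and miR-192-5p it was somewhat larger in size than both SDs, of which that of the littermates rests on 2 mice.

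Without littermate 3 the passenger strands lay lower in Cdr1as-/- mice, and none passed the adjusted test. miR-192-3p differed by -1.03, with a 95% interval from -2.01 to -0.06, a limma p of 0.0395 and an adjusted p of 0.364. miR-194-1-3p differed by -0.80, from -1.81 to 0.21, miR-215-3p by -0.68, from -1.41 to 0.05, and miR-194-2-3p by -0.48, from -1.25 to 0.29. Their adjusted limma p-values were 0.396, 0.388, and 0.445. Before adjustment limma thus counted 1 of the 7 lower and 0 higher, against 10.5% and 2.73% of all miRNAs. The difference was below 0 for 6 of the 7, as for 42.9% of all miRNAs, and above 0 for 1, as for 57.1%. The Cdr1as-/- values all lay below those of littermates 1 and 2 for 3 of the 7, miR-192-3p, miR-194-1-3p, and miR-215-3p, against 19.9% of all miRNAs lower and 20.3% higher without overlap. The exact permutation p of these 3 was 0.2, the smallest that 3 against 2 mice can give.

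Knockout 1 had the lowest level of each passenger strand among the 5 arrays. When it was left out together with littermate 3, leaving 2 mice per group, the log2 difference was -0.61 for miR-192-3p, -0.29 for miR-194-1-3p, -0.37 for miR-215-3p, and -0.18 for miR-194-2-3p. limma's adjusted p ran from 0.643 to 0.771 for these strands. Its median signal, 29.2, was the highest of the 5 arrays, which had 8.75 and 11.2 in the littermates and 14.1 and 11.2 in knockouts 2 and 3, and the part of this in the difference was not tested.

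**Figure D3:**
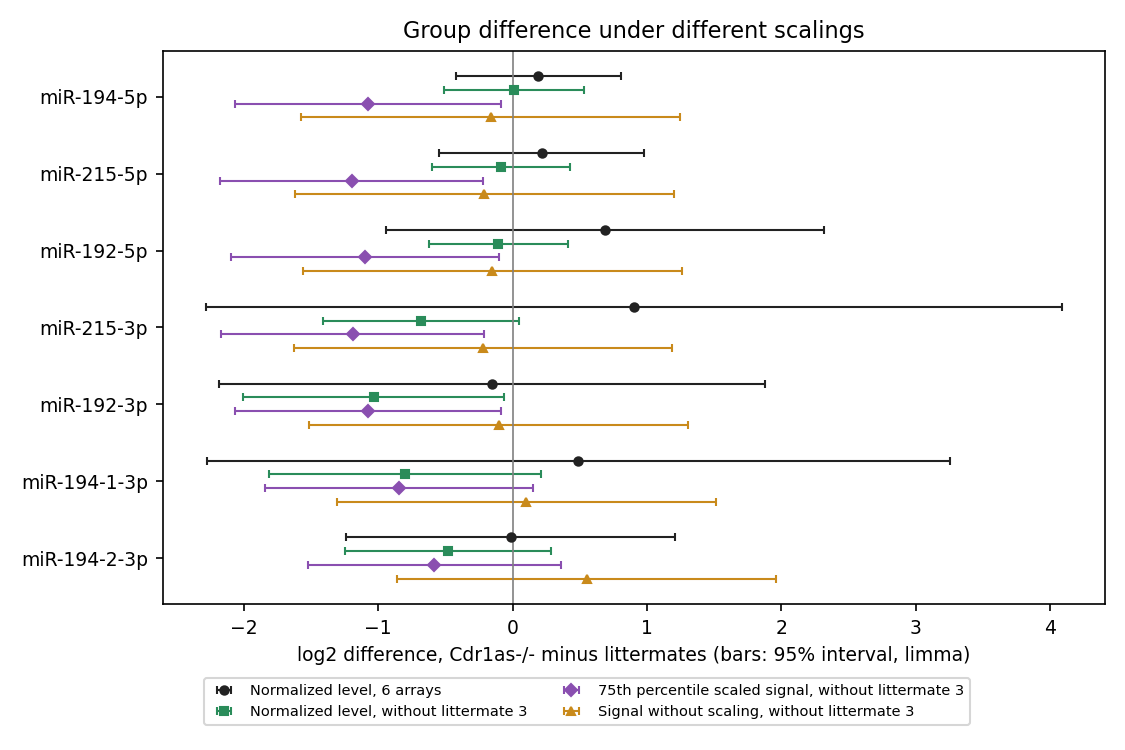
Log2 difference of each miRNA between groups, Cdr1as-/- minus littermates, with limma's 95% interval, for the normalized levels of 6 arrays (black), the same without littermate 3 (green), signals scaled to the 75th percentile without littermate 3 (purple), and unscaled signals without littermate 3 (yellow). The guide strand differences are near 0 on the green and yellow scales and near -1.1 on the purple scale. The purple scale uses the brightest probe and the yellow scale the mean of all probes.

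The group difference moved with the scaling. When the scanner signal of the brightest probe was scaled to the 75th percentile of detected probes, the 5 arrays put all 7 miRNAs lower in Cdr1as-/- mice. On this scale miR-194-5p was at 8.70 and 8.33 for littermates 1 and 2, against 6.47, 8.01, and 7.83 in the knockouts. miR-192-5p was at 6.99 and 6.98, against 4.86, 6.64, and 6.16. Knockout 1 was the lowest of the 5 arrays for both, and the knockouts did not overlap the 2 littermates. As group differences, miR-215-5p then differed by -1.20, miR-215-3p by -1.19, miR-192-5p by -1.10, miR-194-5p by -1.08, miR-192-3p by -1.08, miR-194-1-3p by -0.85, and miR-194-2-3p by -0.58. limma's unadjusted p was below 0.05 for the first 5, from 0.0179 to 0.0346, and the adjusted p was 0.430 for each of them. Over all miRNAs, 8.52% were lower and 2.13% higher at that unadjusted threshold, and 57.8% had a difference below 0 and 42.2% above. The groups did not overlap for any of the 7, with 21.1% of all miRNAs lower and 15.9% higher without overlap. All miRNAs had a median difference of -0.14 on this scale. The 75th percentile subtracted was 7.42 and 7.65 for littermates 1 and 2, against 9.59, 7.81, and 8.0 for knockouts 1 to 3, in log2 units. Without knockout 1, whose percentile was the highest of the 5 arrays, the difference fell in size. It was then -0.59 for miR-194-5p, -0.76 for miR-215-5p, -0.59 for miR-192-5p, and -0.74 for miR-215-3p, with an adjusted limma p of 0.805 each. At an unadjusted p below 0.05, limma counted 0 of the 7 and 46 of all 1831 miRNAs. With knockout 1 kept it had counted 195 of all miRNAs.

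Without any scaling, the same 5 arrays gave a difference in log2 mean signal of -0.16 for miR-194-5p, -0.21 for miR-215-5p, -0.15 for miR-192-5p, and -0.22 for miR-215-3p. It was -0.10 for miR-192-3p, 0.10 for miR-194-1-3p, and 0.55 for miR-194-2-3p. The median of all miRNAs stood at 0.77 on this scale, so that all 7 lay below it. limma's adjusted p was between 0.691 and 0.971, and 0 of the 7 had an unadjusted p below 0.05, against 0% of all miRNAs lower and 14.3% higher. The unscaled signal of miR-215-3p, alone of the 7, did not overlap between the groups and was lower in the knockouts, with an exact permutation p of 0.2. Without overlap, 0.328% of all miRNAs were lower and 37.2% higher. The difference was below 0 for 5 of the 7, as for 8.96% of all miRNAs, and above 0 for 2, as for 91.0%.

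The probes of each miRNA mostly moved together. Over the 6 arrays, 27 of the 35 probes had a higher normalized mean in Cdr1as-/- mice, while 31 of 35 had a lower one without littermate 3. All 5 probes of each guide strand were higher over the 6 arrays. Without littermate 3 all 5 probes were lower for miR-215-5p, miR-215-3p, miR-192-3p, and miR-194-1-3p. Probes of 1 miRNA read the same RNA samples and are not replicates of a mouse. In unscaled signal without littermate 3, 23 of 35 probes were lower, and all 5 probes of miR-194-1-3p and of miR-194-2-3p were higher.

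**Figure D4:**
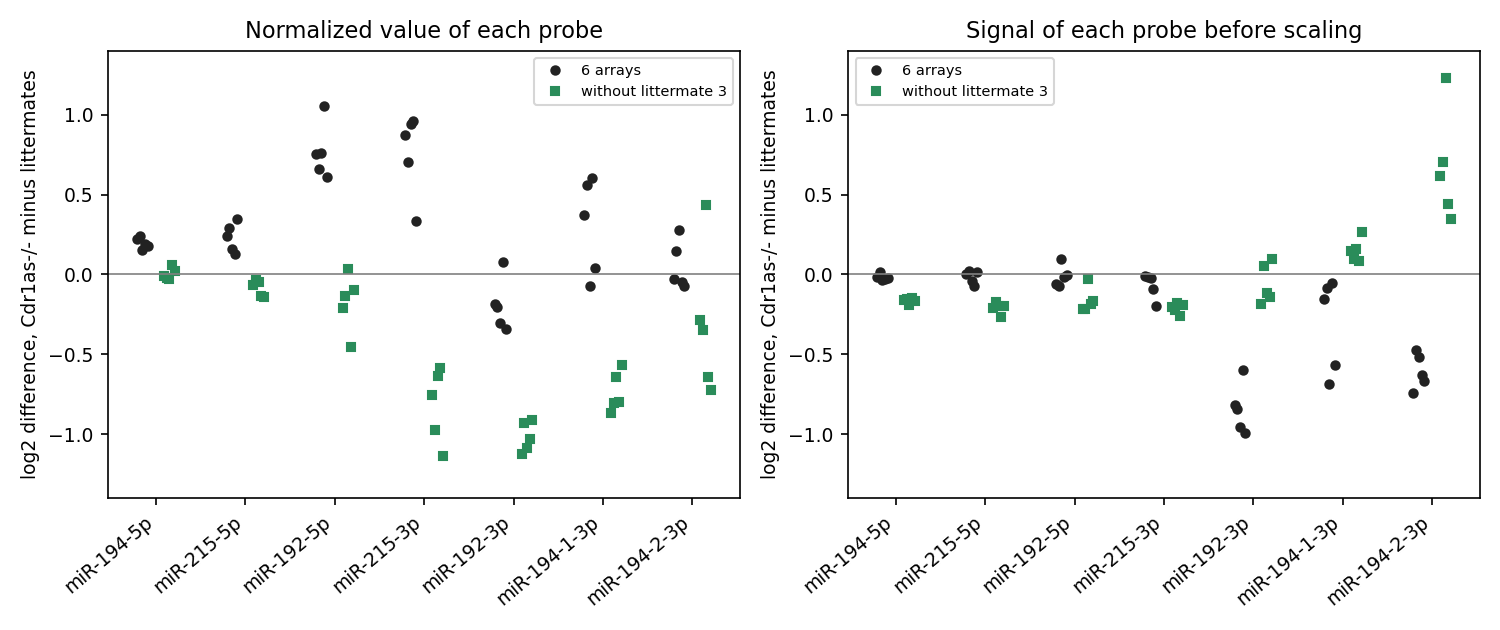
Log2 difference of each of the 35 probes, Cdr1as-/- minus littermates, for normalized values (left) and for the signal before scaling (right), with 6 arrays (black circles) and without littermate 3 (green squares). On the left, most probes are above 0 with littermate 3 and below 0 without it. On the right, the probes of the guide strands and of miR-215-3p stay between -0.27 and 0.09.

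Ratios within an array compare the strands without scaling between arrays when they are taken from the signal. The log2 ratio of miR-194-5p to miR-192-5p was 2.01, 1.72, and 1.88 in the littermates, against 1.82, 1.72, and 2.02 in the knockouts. The log2 ratio of miR-215-5p to miR-194-5p was -0.33, -0.33, and -0.48 in the littermates, against -0.32, -0.33, and -0.49 in the knockouts. The log2 ratio of miR-215-5p to its own passenger strand was 5.17, 5.05, and 5.04 in the littermates, against 5.11, 5.16, and 5.08 in the knockouts. These ratios had nearly the same value on each of the 6 arrays, littermate 3 included, and differed between groups by -0.02, 0.00, and 0.03.

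The ratio of the chromosome 1 guide miR-215-5p to the chromosome 19 guide miR-192-5p was 1.49 ± 0.17 (SD, n = 3) in littermates, against 1.47 ± 0.07 (SD, n = 3) in knockouts, on the log2 scale. The ratio of miR-192-5p to miR-192-3p was 6.40, 6.39, and 3.83 in the littermates, against 6.22, 6.25, and 6.58 in the knockouts. miR-194-5p to miR-194-1-3p gave 8.58, 8.44, and 7.39 in the littermates, against 8.26, 8.22, and 8.26 in the knockouts. miR-194-5p to miR-194-2-3p gave 10.34, 9.90, and 6.13 in the littermates, against 9.07, 9.42, and 9.73 in the knockouts. In the last 3 ratios littermate 3 was the lowest array. Set against littermates 1 and 2, both miR-194 passenger ratios were lower in each knockout, with mean differences of -0.27 and -0.72. The exact permutation p was 0.2 each, the smallest possible here, and 0.70 after adjustment over the 7 ratios. The other ratios overlapped between these groups, with an exact p of 0.8 or more. A ratio does not remove a rise of weak signals alone. Both passenger strands were brightest of the 5 arrays in knockout 1, which had the highest median signal of these. The part of this in the ratios was not tested. In the deposited values of the same 5 arrays these 2 ratios differed in the opposite direction, by 0.81 and 0.49. Their exact permutation p was 0.2 and 0.6, and the groups overlapped for the second. Over all 6 arrays the exact p of the 7 signal ratios was 0.6 or more, and the adjusted value was 1.

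The same ratios in the deposited values moved further from array to array. The log2 ratio of miR-215-5p to miR-215-3p was there 4.35, 4.45, and 8.24 in the littermates, against 5.65, 4.58, and 4.75 in the knockouts. Its exact permutation p over 6 arrays was 1. The log2 ratio of miR-192-5p to miR-192-3p, at 5.23, 5.35, and 5.55 in the littermates, against 7.01, 5.45, and 6.20 in the knockouts, had the smallest exact p of the 7 over 6 arrays, 0.2, which became 1 after adjustment. A ratio of normalized values thus depended on the normalization, which did not shift high and low values by the same amount.

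The other marker miRNAs, grouped by cell type, included 0 called in either direction with or without littermate 3. All 9 of the other epithelial miRNAs, the miR-200 family, miR-375-3p, and others, had a positive difference over the 6 arrays, with a median of 0.84, against 0.22 for the 7 miRNAs here and -0.07 for all miRNAs. Without littermate 3 all 9 had a negative difference, with a median of -0.33, against -0.48 for the 7 and 0.09 for all miRNAs. The brightest of the 9, miR-200b-3p, which holds epithelial cells in their state by repressing Zeb factors, was at 13.19, 13.29, and 10.16 in the littermates, against 12.92, 13.18, and 13.13 in the knockouts. It was lowest in littermate 3, as were the guide strands.

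Markers of other cells also varied. All 7 smooth muscle and mesenchyme markers were well above background on each array, as were 984 of all 1831 miRNAs. miR-143-3p, the brightest of them, was at 10.58, 10.49, and 5.76 in the littermates, against 12.06, 11.55, and 9.33 in the knockouts. The summed level of this list ran from 7.57 to 11.39 in littermates and from 10.17 to 12.56 in Cdr1as-/- mice, on the log2 scale. The summed level of the 6 immune markers ran from 9.25 to 12.59 and from 12.03 to 12.86, with miR-142a-3p of blood-derived cells brightest at 7.49 to 11.66 and 11.22 to 11.96. The sum of the 4 erythroid markers ran from 6.96 to 10.09 and from 7.69 to 8.29, and miR-451a, its brightest, was at 9.95 in littermate 1 and at 5.40 to 8.03 elsewhere. The median log2 difference of the smooth muscle and mesenchyme list was 0.30 over the 6 arrays and -0.11 without littermate 3. That of the immune list was 0.59 and then -0.32, and that of the erythroid list -0.17 and then -0.37. Their part in the levels of the 7 miRNAs was not tested.

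The remaining lists were small. The 2 endothelial markers had a summed level of 6.70 to 9.34 in littermates and 7.68 to 9.47 in Cdr1as-/- mice, and miR-126a-3p, the brightest, differed by 0.30 over the 6 arrays and by -0.68 without littermate 3. The median difference of both was 0.11 and then -0.35. miR-122-5p, the liver miRNA, was at 5.24 to 5.76 in littermates and 5.45 to 5.76 in Cdr1as-/- mice, with a difference of 0.20 over the 6 arrays and 0.37 without littermate 3. The 2 pancreatic acinar markers, led by miR-217-5p with a difference of 0.21, had summed levels of 5.09 to 6.0 and 5.48 to 6.66, and a median difference of 0.44, or 0.71 without littermate 3. Of the 2 neural markers, led by miR-9-5p at 3.80 to 4.45, 0 were well above background on all arrays, and their median difference was -0.05, or -0.07 without littermate 3. The 5 other p53-linked miRNAs had a median difference of -0.07, and miR-34a-5p, a direct p53 target and the brightest of them, was at 7.36, 7.03, and 4.14 in the littermates, against 5.58, 7.12, and 5.92 in the knockouts. Its difference was 0.03 over the 6 arrays and -0.99 without littermate 3, where the median of the 5 was -0.20. The 0 calls in these lists stand beside 0% called over all miRNAs.

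The miRNAs most like the guide strands over the 6 arrays were found by the root mean square difference of log2 levels, each centred on its own mean, from the mean of the 3 guide strands. They were miR-423-3p at 0.19, miR-150-5p at 0.22, miR-30d-3p at 0.23, miR-183-3p at 0.24, and miR-690 at 0.26. All 5 were lowest in littermate 3, for example miR-150-5p, at 8.30, 8.34, and 6.73 in the littermates, against 8.01, 8.44, and 7.83 in the knockouts. Without littermate 3 the nearest were miR-1291, miR-505-3p, miR-7230-5p, miR-5122, and miR-16-1-3p, at 0.05 each. The guide mean itself departed from its own mean by a root mean square of 0.46 over the 6 arrays and of 0.04 over the 5. Over the 6 arrays 298 miRNAs were nearer to it than a flat line was, and over the 5 arrays 0 were.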

How the data were processed

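Small RNAs were labelled with Cy3 and hybridised to one-colour arrays, 1 for each of 3 littermates and 3 Cdr1as-/- mice, grouped by their labels. The authors deposited the scanner output (Agilent Feature Extraction 11.0.1.1, per the labels), whose processed intensity has the local background subtracted and no scaling between arrays. They also deposited normalized log2 values for 10690 of 14192 small RNA probes and for 1831 miRNAs. The normalization is not named in the sources used here. Quantile normalization of the scanner signal gave nearly the differences of the deposited probe with the highest mean. These were 0.613 against 0.607 for miR-192-5p and 0.971 against 0.959 for miR-215-3p. Each deposited log2 value of a miRNA equals the log2 of the mean unlogged value of its 1 to 5 probes, within 0.0002, which placed 8437 probes. Columns holding the authors' own fold changes, p-values, and q-values were not used.

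The deposited value per miRNA was tested with the lmFit and eBayes functions of limma 3.58.1, run in R 4.3.3, with Benjamini-Hochberg adjustment over 1831 miRNAs at 0.05, on 6 arrays and without littermate 3. Exact two-sided permutation tests were run on single miRNAs and on 7 within-array ratios. Fold changes of the scanner output used the brightest probe, except where the mean signal or the mean of all probes is named. Control spots, probes with outlier flags, and 500 spots with identifiers of another form were left out. The 75th percentile was that of the 5555 probes (39.1%) called well above background on each of the arrays. Normexp, with an offset of 50, used the median signal, since the scanner output holds no mean column. The code was tested on simulated data.

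The 7 miRNAs, the marker lists, and the tests were chosen with earlier results of these data known, and littermate 3 had been seen to stand apart. The miRNAs named are the 7, the brightest of each marker list, and the 5 most like the guide strands with and without littermate 3; miR-3960, miR-3473b, and miR-5126 were named after their values were seen. The labels do not say how the mice relate across replicate numbers, so p-values measure the spread between these arrays, and the number of arrays limits the precision. For same-numbered mice, the correlations of their deviations across miRNAs were -0.76, 0.56, and -0.22. Deviations were taken from the mean of each group, which littermate 3 moved, so these values cannot tell whether the numbers pair mice. Alternatives covered scaling, background correction, probes, filter, test, replicate block, slide, and each replicate left out. Sequences and coordinates came from RefSeq tables of GRCm38.p6. Python 3.11.15, NumPy 2.4.6, pandas 2.3.3, SciPy 1.17.1, and matplotlib 3.10.9 were used.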

Additional observations from a re-analysis of the deposited data

How the results depend on the processing

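No miRNA of the 7 passed the adjusted threshold under any of 23 alternatives, where limma's adjusted p ran from 0.364 to 1. The count of miRNAs called was 0 of 7 in each, and it was also 0 among all miRNAs tested in each. Of the 161 log2 differences these gave, 113 kept their direction and 48 turned, and the cause was not tested. Direction is the sign of the difference itself, not its place against the median of all miRNAs. Of the 113, 28 could not move, since those alternatives change only the test, the replicate block, or the miRNAs tested. Alternatives that leave out littermate 3 together with another change, or use the mean of all probes, were chosen after seeing the data.

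Without scaling of the scanner signal, the difference turned to -0.0033 for miR-192-5p, -0.031 for miR-194-5p, -0.056 for miR-194-1-3p, -0.074 for miR-215-5p, and -0.093 for miR-215-3p. With the mean of all probes in place of the brightest it was -0.0026, -0.021, -0.13, -0.019, and -0.051, in the same order. Without scaling and littermate 3, it was -0.17 for miR-192-5p, -0.15 for miR-194-5p, 0.35 for miR-194-2-3p, -0.27 for miR-215-5p, and -0.26 for miR-215-3p, and with the mean of all probes -0.15, -0.16, 0.55, -0.21, and -0.22. With 75th percentile scaling and without littermate 3, it was -1.10 for miR-192-5p, -1.08 for miR-194-5p, -0.85 for miR-194-1-3p, -1.20 for miR-215-5p, and -1.19 for miR-215-3p, and without knockout 1 as well it was -0.59, -0.59, -0.33, -0.76, and -0.74. Unscaled signals moved the median difference of all miRNAs from -0.07 to -0.74 over 6 arrays and to 0.79 without littermate 3, so differences on that scale are relative to these medians. For miR-192-3p, scaling to the 75th percentile of all probes gave 0.055, quantile normalization 0.079, and the deposited probe with the highest mean 0.076. With the slide as a block miR-194-1-3p turned to -0.54. Without littermate 3 and knockout 1 the difference was -0.08 for miR-192-5p, -0.29 for miR-194-1-3p, -0.10 for miR-215-5p, and -0.37 for miR-215-3p.

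When each replicate was left out in turn, the difference ran from -0.11 to 1.11 for miR-192-5p, from -1.03 to 0.29 for miR-192-3p, from 0.01 to 0.29 for miR-194-5p, and from -0.80 to 1.17 for miR-194-1-3p. It ran from -0.48 to 0.28 for miR-194-2-3p, from -0.08 to 0.39 for miR-215-5p, and from -0.68 to 1.74 for miR-215-3p. Each end below 0 in these ranges came from leaving out littermate 3. For miR-192-3p, leaving out knockout 1 gave 0.27.

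Of the ratios in deposited values, leaving out littermate 3 turned miR-194-5p to miR-192-5p to 0.11, miR-215-5p to miR-192-5p to 0.023, miR-215-5p to miR-194-5p to -0.091, miR-194-5p to miR-194-1-3p to 0.81, and miR-215-5p to miR-215-3p to 0.60. From the scanner signal of all 6 arrays, the last 2 were 0.11 and 0.032. The median of the liver list moved to -0.10 and that of the neural list to -0.25 with 75th percentile scaling. A replicate block left every difference as it was, 0.69 for miR-192-5p, and changed no call, since all numbers occur in both groups. With 3 mice per group and 1 array apart from the rest, differences smaller than the intervals given could not be resolved.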
